A study of Mus musculus with 4 samples.

Results

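Axon guidance ligands and receptors are the genes described here, in the visual cortex of mice that lost an eye after a life in darkness. The genes were picked by a rule on names, set with earlier results of these data known. It took every probe set whose single gene symbol in the platform's annotation table began with Eph, Efn, Sema (classes 3 to 7), Plxn, Nrp, Ntn, Robo, Slit or Unc5. This gave 57 probe sets for 44 genes, of the 12488 probe sets and the 8251 singly named genes on the array. The letters also caught Unc50, which is no relative of the netrin receptors, so 43 guidance genes with 56 probe sets remained. They were 8 ephrins, 9 Eph receptors, 16 semaphorins, 6 plexins and neuropilins, 2 members of the netrin and Unc5 group (Ntn1 and Unc5c) and 2 Robo receptors (Robo1 and Robo3). Slits, Nrp2 and further members of these families were not analysed here.

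Guidance molecules are cues and receptors that steer growing axons, and many of them stay on in the adult cortex, where they act at synapses and dendritic spines. Ephrins are ligands tethered to the cell surface, the A class by a lipid anchor and the B class by a membrane-spanning stretch, and they bind Eph receptor tyrosine kinases on the neighbouring cell. Semaphorins act on plexins, with neuropilins as co-receptors for the secreted class. Netrin can attract axons through the receptor Dcc and repel them through Unc5 receptors, and Slit repels them through Robo receptors. In the visual system, ephrin-A and Eph-A gradients are known for laying out the map of the retina.

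Each of the 4 samples was listed with 5 mice. All tissue came from wild-type C57Bl6 mice that were kept in the dark from birth to postnatal day 42. One eye was then removed, and the mice spent 4 days in a normal light cycle before they were killed on postnatal day 46. Deprived cortex is the side contralateral to the removed eye and non-deprived cortex is the ipsilateral side, so both sides had the same dark rearing, the same surgery and the same first light. Samples were pools, as the series' design text states, and each side gave 2 arrays (n = 2 per group). Which mice went into which pool, and how many mice there were in all, is not known from the labels. The p-values therefore measure the spread between these 4 arrays. In limma the variance of each gene was also drawn toward a trend over all 7458 tested probe sets. That raised the degrees of freedom from 2 to 11.6. With 2 against 2, an exact permutation test of a single gene cannot give a two-sided p below 0.333. Mice with both eyes, or raised in light, were not analysed here.

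Some properties of the arrays bear on all values below. Median signals ran from 189.9 to 245.7, and deprived array 1 correlated least with the rest (mean r = 0.91, against 0.93 for each of the other 3). It was the highest or the lowest of the 4 arrays for 19 of the 30 tested guidance genes and for 60.7% of all tested genes. As a check of the labels, Fos, which neurons switch on when they fire, had signals of 1107 and 1352 on the deprived arrays and 3019 and 3568 on the non-deprived arrays (limma adjusted p = 0.020). The ratio of 5′ to 3′ signal, a sign of RNA integrity, was lower on both deprived arrays for Actb (0.544 and 0.463 against 0.638 and 0.632) and for Gapdh (0.745 and 0.689 against 0.875 and 1.07). Markers of cortex were present, among them Tbr1 and Nrgn of excitatory neurons, with mean signals of 3879 and 9020. The summed signal of the 5 measured oligodendrocyte markers of 6 listed was higher on the deprived arrays, 11174 to 12401 against 9157 to 10394. None of the 5 was at 0, but Cnp, with a mean of 132.4, was too dim to test. Of the 4 tested, 3 were higher and 1 lower. Mobp (4853 and 4575 against 3707 and 3079) and Mog did not overlap. Mbp (6150 and 5317 against 5521 and 4900) and Mag overlapped. The summed markers of neighbouring striatum, thalamus and hippocampus (4 measured of 6) were also higher on the deprived arrays, 1890 to 2109 against 1700 to 1734. None was at 0, but Prox1, with a mean of 60.4, was too dim to test. Penk did not overlap (1021 and 1193 against 956 and 984). Drd2 (411.4 and 132.3 against 250.8 and 181.1) and Tcf7l2 (564.5 and 483.9 against 490 and 522.8) overlapped. The sums of the other 7 marker lists overlapped between the groups. Within both same-numbered pairs, though, the neuron sum was lower on the deprived array (26422 against 30651 and 31773 against 34863), with 4 of 5 markers lower. The inhibitory neuron sum was lower there too (15246 against 18436 and 18574 against 20244), with 5 of 6 markers lower. Whether RNA integrity, neuronal RNA, oligodendrocyte RNA or tissue from neighbouring regions has a part in the differences below was not tested. In bulk tissue, fewer cells of a type and less RNA per cell cannot be told apart.

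No axon guidance gene passed an adjusted p of 0.05 in limma, in either direction. Of the 43 genes, 30 were bright enough to test (mean signal of at least 142.9, the 40th percentile of all probe sets), and the smallest adjusted p among them was 0.466, for Efna3. Over all tested genes 0.0885% were called lower and 0% higher at this threshold, and over all tested probe sets 0.107% lower and 0% higher. There were 5 guidance genes at an unadjusted p under 0.05. Efna3 and Plxna2 were lower in the deprived cortex and Sema5b, Plxnd1 and Unc5c higher. That is 16.7% of the 30, where 4.92% of all 5649 tested genes reached the same limit (3.19% lower and 1.73% higher). The count leaned on single arrays and changed whichever array was left out. The share of all tested genes at this limit in those fits is not given here, so a change across the whole table cannot be told from one in the guidance genes. The groups did not overlap for 16 of the 30 genes, 9 lower and 7 higher (53.3%), against 31.7% of all tested genes (16.4% lower and 15.4% higher). Values below 0 were found for 16 of the 30 (53.3%), against 49.2% of all tested genes. The median log2 fold change was -0.016 over the 30 genes and 0.0057 over all tested genes. With the replicate number as a block, which sets each deprived array beside the non-deprived array of the same number, 0 guidance genes passed (lowest adjusted p = 0.112 in limma) and 7 of 30 were at an unadjusted p under 0.05, where 8.43% of all tested genes were (4.99% lower and 3.43% higher). At an adjusted p of 0.05 the block called 0.443% of all tested genes lower and 0.0177% higher.

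**Figure D1:**
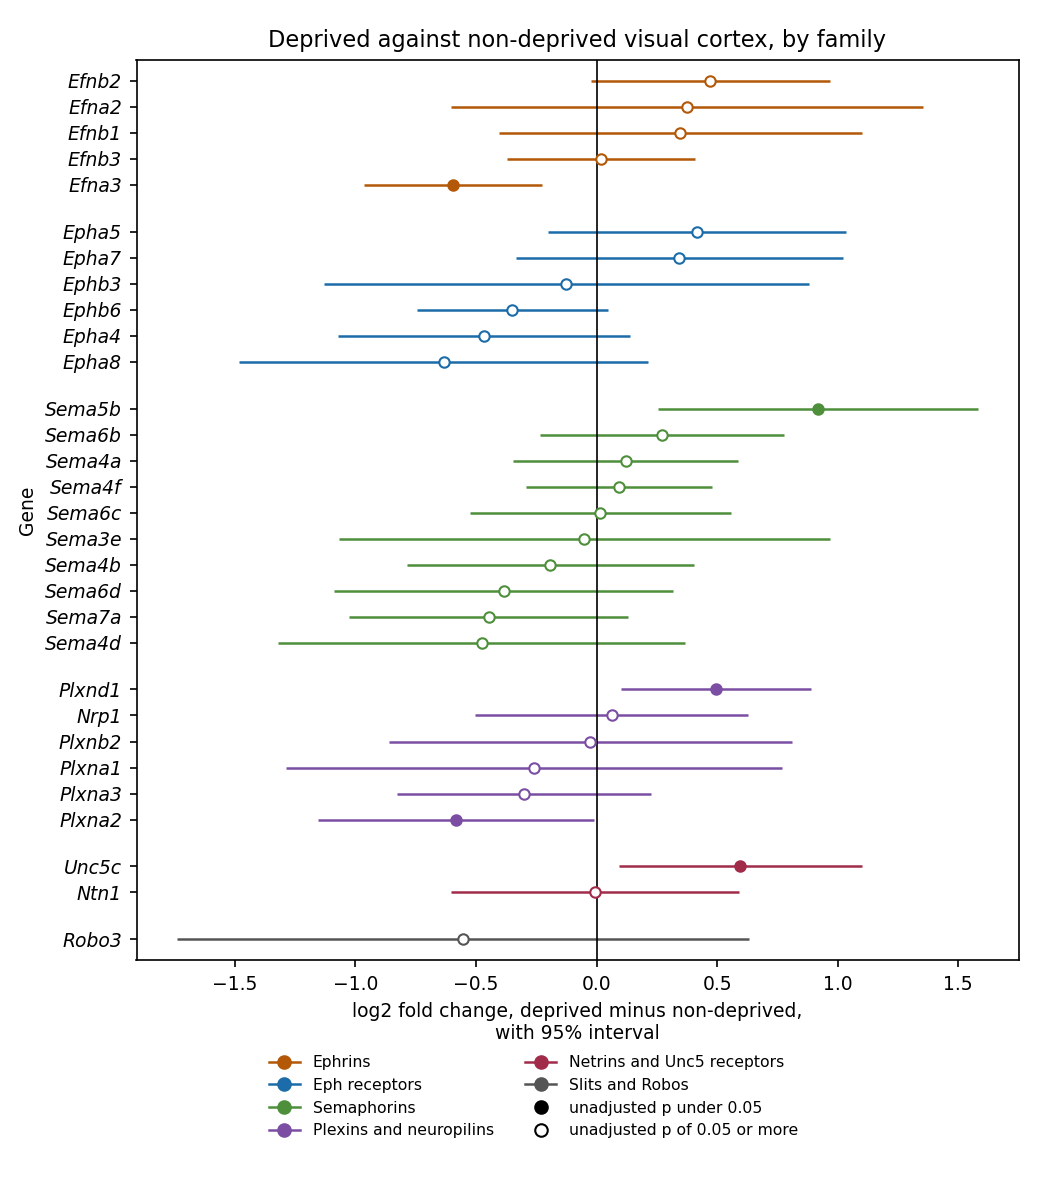
Log2 fold change (deprived minus non-deprived, on the log2(signal + 60.6) scale) of the 30 tested guidance genes with its 95% interval from limma, grouped and coloured by family, with filled points at an unadjusted p under 0.05. The 5 filled points, Efna3, Sema5b, Plxnd1, Plxna2 and Unc5c, are the genes whose interval leaves out 0, and higher and lower values occur in each of the 4 families with 3 or more tested genes.

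Efna3, which encodes the lipid-anchored ligand ephrin-A3, had the smallest p of all guidance genes. Its signal was 1922 and 2210 on the deprived arrays and 2995 and 3296 on the non-deprived arrays. Both deprived arrays lay below both non-deprived ones, at 2066 ± 204 against 3146 ± 213 (SD, n = 2 per group). The log2 fold change was -0.59 ± 0.17 (SE), with a 95% interval from -0.96 to -0.23, an unadjusted p of 0.00437 and an adjusted p of 0.466 in limma. The difference lay between -0.43 and -0.76 when each deprived array was set against each non-deprived one. Without non-deprived array 2 the unadjusted p was 0.0523. Efna3 was represented by 1 probe set, 100289_at, so no other part of its transcript could be set beside it.

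Sema5b, a membrane-spanning semaphorin with thrombospondin repeats, showed the largest difference among the tested guidance genes. Its signal was 558 and 473 on the deprived arrays and 209.3 and 281.7 on the non-deprived arrays, which did not overlap. The log2 fold change was 0.92 ± 0.30 (SE; 95% interval 0.25 to 1.58; limma adjusted p = 0.586), or 1.89-fold. It was the 1 guidance gene of 30 (3.33%) with a difference of 1.5-fold or more, with 1 sign, in every one of the 4 array pairs, against 1.5% of all tested genes. That share was 0.266% for higher and 1.24% for lower values, and 0 guidance genes were lower to this extent. With a single array left out fewer pairs had to agree, so this count could only stay or rise. The share of all tested genes under that looser rule is not given here. Without non-deprived array 1 the log2 fold change of Sema5b was 0.75, with an unadjusted p of 0.083.

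Plxnd1 and Plxna2, both semaphorin receptors, stood on opposite sides of 0. Plxnd1, a receptor for Sema3e that is also known from blood vessels, had signals of 1441 and 1381 on the deprived arrays and 1004 and 962 on the non-deprived arrays. The groups were far apart for their spread, at 1411 ± 42.1 and 983 ± 29.3 (SD, n = 2 per group), and the log2 fold change was 0.50 ± 0.18 (SE; 95% interval 0.10 to 0.89; limma adjusted p = 0.685). The summed signal of 6 endothelial and pericyte markers was 1076 to 1584 on the deprived and 1108 to 1237 on the non-deprived arrays, which overlapped. Of these markers 4 were above the filter, 2 with lower and 2 with higher values, and the part of vessel content in the Plxnd1 difference was not tested. Plxna2, a partner of neuropilins and of class 6 semaphorins, had 505.5 and 457.5 on the deprived arrays and 588.5 and 954 on the non-deprived arrays. Its log2 fold change was -0.58 ± 0.26 (SE; 95% interval -1.16 to -0.010; limma adjusted p = 0.91). Here non-deprived array 2 decided the size: without it the log2 fold change was -0.26, with an unadjusted p of 0.506.

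Unc5c, a receptor through which netrin repels axons, had signals of 960 and 717 on the deprived arrays and 529 and 528 on the non-deprived arrays. Both deprived arrays were higher, deprived array 1 the most. The log2 fold change was 0.60 ± 0.23 (SE; 95% interval 0.094 to 1.10; limma adjusted p = 0.782). Without deprived array 1 it was 0.40, with an unadjusted p of 0.152. Its ligand gene Ntn1 had 588 and 384.5 on the deprived arrays and 480 and 477.8 on the non-deprived arrays. The deprived arrays lay on either side of the non-deprived ones, with a log2 fold change of -0.006 ± 0.27 (SE; 95% interval -0.60 to 0.59; limma adjusted p = 0.999), and the sign turned to 0.01 with arrays scaled to a common median and 0.02 after quantile normalization.

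**Figure D2:**
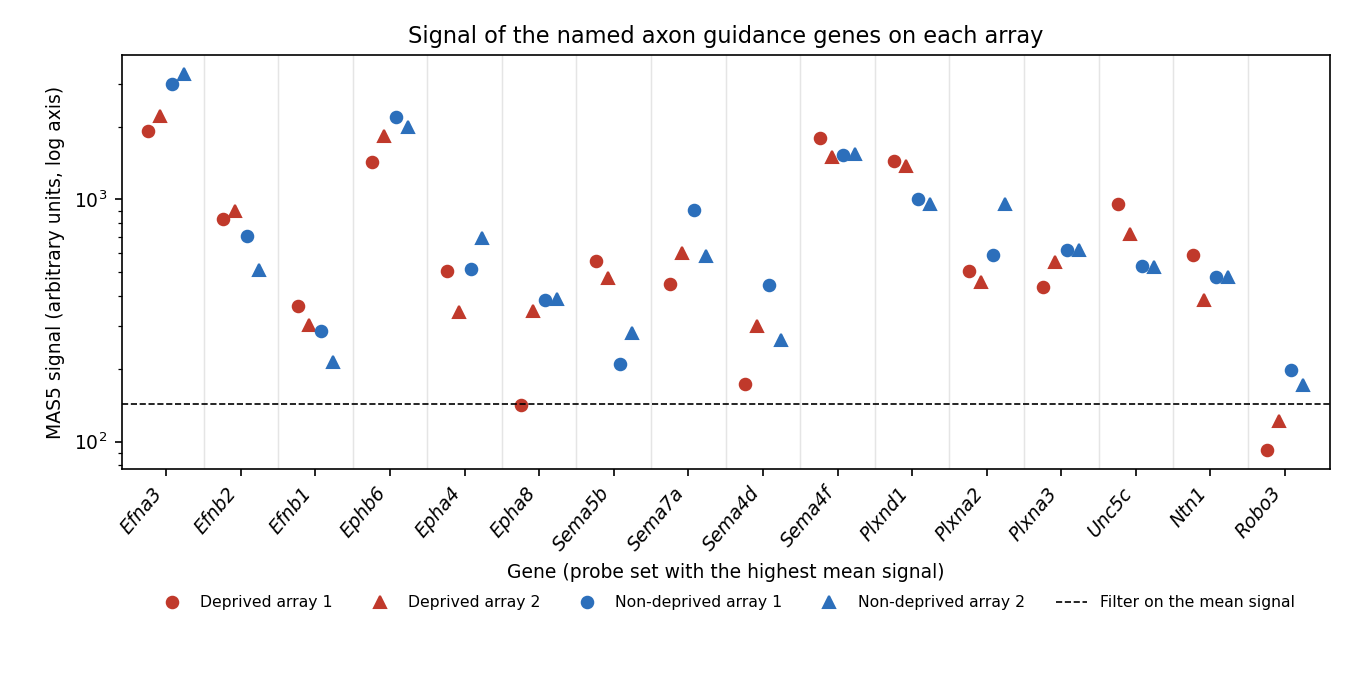
MAS5 signal (arbitrary units, log axis) of 16 guidance genes on each of the 4 arrays, in family order; red is deprived, blue is non-deprived, circles are replicate 1, triangles are replicate 2, and the dashed line is the filter at a mean signal of 142.9. Efna3 has both red points below both blue points, whereas Sema5b, Plxnd1 and Unc5c have both red points above both blue points.

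The promoters of these 5 genes are shown because they are the members with the smallest p-values and because activity-driven transcription factors act on such stretches. Each is the 250 bases upstream of a transcription start, from RefSeq on GRCm38.p6, which listed 2 starts for Efna3 and 1 for each of the other genes. Capitals mark matches on either strand to 4 motifs: the cyclic AMP response element TGACGTCA, the AP-1 site TGANTCA, the Egr site GCGNGGGCG and the GC box GGGCGG. An Egr match followed by another G contains a GC box, so these overlap.
Efna3, downstream start (GRCm38.p6, chr3:89321769-89322018, minus strand): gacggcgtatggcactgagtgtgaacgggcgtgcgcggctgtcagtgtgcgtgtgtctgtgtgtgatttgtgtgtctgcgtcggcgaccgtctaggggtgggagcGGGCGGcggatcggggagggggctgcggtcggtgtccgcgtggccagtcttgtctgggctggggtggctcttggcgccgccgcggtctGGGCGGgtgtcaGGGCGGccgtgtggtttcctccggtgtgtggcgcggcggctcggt
Efna3, upstream start (GRCm38.p6, chr3:89322940-89323189, minus strand): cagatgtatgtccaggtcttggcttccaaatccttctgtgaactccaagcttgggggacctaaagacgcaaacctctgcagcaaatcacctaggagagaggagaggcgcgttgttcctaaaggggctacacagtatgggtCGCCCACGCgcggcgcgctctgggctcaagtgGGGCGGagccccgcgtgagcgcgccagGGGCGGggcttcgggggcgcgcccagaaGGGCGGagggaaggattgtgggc
Plxna2 (GRCm38.p6, chr1:194619579-194619828, plus strand): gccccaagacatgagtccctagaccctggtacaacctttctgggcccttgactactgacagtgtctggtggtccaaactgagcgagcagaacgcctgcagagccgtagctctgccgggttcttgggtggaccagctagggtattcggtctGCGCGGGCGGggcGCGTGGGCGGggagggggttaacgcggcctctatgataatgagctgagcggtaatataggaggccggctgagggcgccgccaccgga
Plxnd1 (GRCm38.p6, chr6:115995006-115995255, minus strand): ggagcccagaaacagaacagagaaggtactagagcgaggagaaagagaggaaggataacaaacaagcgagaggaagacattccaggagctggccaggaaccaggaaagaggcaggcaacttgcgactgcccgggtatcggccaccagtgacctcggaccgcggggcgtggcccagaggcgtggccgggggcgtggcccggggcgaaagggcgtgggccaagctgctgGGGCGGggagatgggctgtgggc
Sema5b (GRCm38.p6, chr16:35541112-35541361, plus strand): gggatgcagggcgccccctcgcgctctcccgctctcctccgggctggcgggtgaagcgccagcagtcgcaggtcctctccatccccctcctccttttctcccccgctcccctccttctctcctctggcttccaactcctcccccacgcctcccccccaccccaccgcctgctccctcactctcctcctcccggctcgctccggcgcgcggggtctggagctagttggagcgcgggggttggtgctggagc
Unc5c (GRCm38.p6, chr3:141465314-141465563, plus strand): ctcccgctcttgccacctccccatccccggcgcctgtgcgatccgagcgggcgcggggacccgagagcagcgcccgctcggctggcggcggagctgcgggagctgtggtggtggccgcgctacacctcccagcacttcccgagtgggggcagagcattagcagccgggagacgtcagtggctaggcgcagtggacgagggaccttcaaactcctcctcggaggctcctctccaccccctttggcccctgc
The capitals in the upstream Efna3 stretch include 1 Egr match, and those in Plxna2 include 2. The downstream Efna3 stretch and those of Plxnd1, Sema5b and Unc5c hold 0. No cyclic AMP response element or AP-1 site occurred in the printed stretches. Over the 50 promoters listed for 37 guidance genes, 7 (14%) held an Egr match, against 4.7% of 32851 promoters of all genes, and 37 (74%) held a GC box, against 32.7%. For the cyclic AMP response element the share was 2% against 1.55%, and for AP-1 it was 4% against 6.75%. These matches describe letters only. The guidance promoters were not matched to others in base composition.

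Among the other ephrins the values were mostly higher in deprived cortex, with Efna3 the 1 exception of 5 tested genes (median log2 fold change 0.35). Efnb2, a membrane-spanning ephrin that can also signal back into its own cell, had 829 and 896 on the deprived arrays and 709 and 514 on the non-deprived arrays. The groups did not overlap, and the log2 fold change was 0.47 ± 0.23 (SE; 95% interval -0.024 to 0.97; unadjusted p = 0.0603, limma adjusted p = 0.922). Efnb1 had 364 and 303.8 against 287.5 and 213.9, also without overlap, at 0.35 ± 0.34 (SE). Efnb3 gave 1268 and 1176 on the deprived and 1212 and 1197 on the non-deprived arrays, which overlapped, with a 95% interval from -0.37 to 0.41 around 0.02. Efna2 rested on 1 array: it had 564 on deprived array 1 but 177.1 on deprived array 2, against 234.6 and 238.8. Without deprived array 1 the median of the ephrins was -0.033.

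The Eph receptors, which bind these ligands, gave 4 lower and 2 higher values among 6 tested genes (median log2 fold change -0.24). Ephb6, a family member without kinase activity, had 1435 and 1828 on the deprived arrays and 2181 and 1986 on the non-deprived arrays. The groups did not overlap, and the log2 fold change was -0.35 ± 0.18 (SE; 95% interval -0.75 to 0.047; limma adjusted p = 0.954). Epha4, a receptor for ephrins of both classes, had 505.8 and 341.6 against 515.9 and 694.7, without overlap but with 1 array of each group close together, at -0.47 ± 0.28 (SE). Epha8 had 142.3 on deprived array 1, while its other 3 arrays lay between 347 and 386.5, so its log2 fold change of -0.63 ± 0.39 (SE) was -0.13 without that array. Epha5 and Epha7 were higher on both deprived arrays, at 0.42 ± 0.28 and 0.34 ± 0.31 (SE), mainly through deprived array 1. Ephb3 overlapped widely, with 167.8 and 312.6 against 404 and 157.5. Leaving out deprived array 1 moved the family median to -0.047, and leaving out non-deprived array 1 moved it to 0.043.

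Semaphorins were evenly split, with 5 lower and 5 higher of 10 tested genes and a median log2 fold change of -0.017. Sema7a, the lipid-anchored member, had 447 and 599 on the deprived and 902 and 586 on the non-deprived arrays, and the groups overlapped (-0.45 ± 0.26, SE). Sema4d, a ligand of B-class plexins known from oligodendrocytes and immune cells, had 172.6 and 300.3 against 442.5 and 263.4, again with overlap (-0.48 ± 0.39, SE). Sema4f, with the highest signal of the family, had 1794 and 1495 against 1529 and 1536, and its 95% interval ran from -0.29 to 0.48. Sema6d and Sema4b were lower on both deprived arrays, at -0.38 ± 0.32 and -0.19 ± 0.27 (SE). The membrane-spanning Sema4a, Sema6b and Sema6c and the secreted Sema3e overlapped between the groups, with log2 fold changes of 0.12, 0.27, 0.02 and -0.05.

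Besides Plxnd1 and Plxna2, the receptors of semaphorins gave Plxna3, with 437 and 554 on the deprived and 620.2 and 620.9 on the non-deprived arrays. These did not overlap, at -0.30 ± 0.24 (SE; limma adjusted p = 0.999). Nrp1, the co-receptor for Sema3a, had 482 and 466 against 493.5 and 413, and its 95% interval ran from -0.50 to 0.63. Plxna1 had 199.8 and 300.7 against 160 and 551.5, and Plxnb2 had 720 and 248 against 451 and 427. Both overlapped. Non-deprived array 2 was the highest for Plxna1, and the deprived arrays were the highest and the lowest for Plxnb2. The 6 genes had a median of -0.14.

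Robo3, a Robo family receptor known for steering axons at the midline, was the 1 tested gene of its group. It had 92.1 and 121.7 on the deprived arrays and 198.4 and 171.2 on the non-deprived arrays. The groups did not overlap, but the 95% interval of the log2 fold change ran from -1.74 to 0.63 (limma adjusted p = 0.999). Its deprived mean of 106.9 was under the filter and its non-deprived mean of 184.8 above it, so it entered the test through the non-deprived arrays; both group means were above the filter for the other 29 genes.

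By role, the 16 tested ligands had 7 lower and 9 higher values (median log2 fold change 0.017) and the 14 tested receptors 9 lower and 5 higher (median -0.19). The precision set what could be seen: the standard error of the 30 log2 fold changes ran from 0.169 to 0.543, and for 14 genes the whole 95% interval lay within 1 log2 unit of 0. For the other 16 genes a difference of 2-fold was inside the interval in at least 1 direction. Unc50, caught by its letters, had 1688 and 1780 against 1608 and 1659 (0.08 ± 0.17, SE).

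Several genes could be read from more than 1 probe set. Of 6 guidance genes with 2 or more tested probe sets, the log2 fold changes had 1 sign in 2 genes and both signs in 4. Epha4 gave -0.47 at probe set 104673_at and 0.58 ± 0.54 (SE) at the dimmer 161866_at. The dimmer one had 257.2 and 158.5 on the deprived and 81.4 and 157.4 on the non-deprived arrays, which did not overlap. Its non-deprived mean of 119.4 was under the filter, so it entered the test through the deprived arrays. Ephb6 gave -0.35 at 102871_at and 0.19 ± 0.26 (SE) at 162371_r_at, where the groups overlapped. Plxnb2 gave -0.03 and 0.51, and Sema4b gave -0.19, 0.35 and -0.14. In Efnb3 both were above 0, at 0.02 and 0.19, and in Sema7a both below, at -0.45 and -0.05. The 95% intervals of the probe sets of each of these genes overlapped. For the 5 genes at an unadjusted p under 0.05 only 1 probe set each was on the array.

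**Figure D3:**
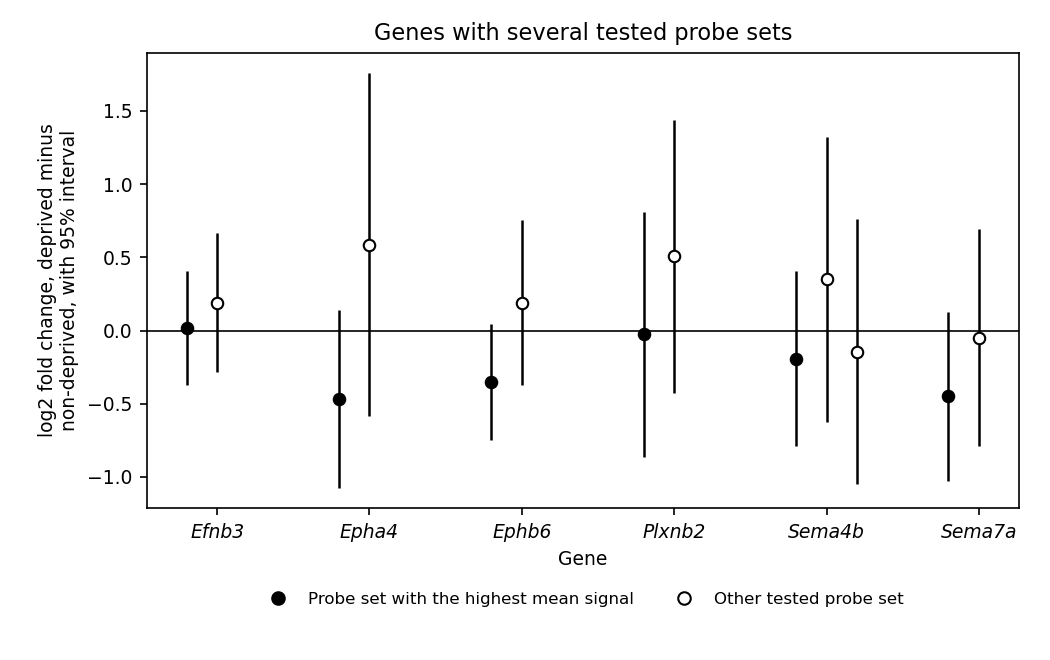
Log2 fold change (deprived minus non-deprived, log2(signal + 60.6) scale) with 95% interval from limma for each tested probe set of the 6 guidance genes that had several; filled points are the probe set with the highest mean signal, open points the others. In Epha4, Ephb6, Plxnb2 and Sema4b the points lie on both sides of 0, and all intervals of a gene overlap.

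A further 13 guidance genes were too dim to test, with mean signals from 20.4 to 130.5. They were Efna1, Efna4, Efna5, Epha2, Epha3, Epha6, Sema3a, Sema3b, Sema3c, Sema3f, Sema5a, Sema6a and Robo1, so Sema3e was the 1 class 3 semaphorin bright enough to test. Without detection calls, a signal this low cannot be told from background. Sema3a, a secreted repellent that binds the net of matrix around some inhibitory neurons, was the 1 dim gene whose groups did not overlap, where 24.4% of all 2602 dim genes did not overlap (9.61% lower and 14.8% higher). It had 21.1 and 27.8 on the deprived arrays and 89.5 and 143.9 on the non-deprived arrays. In a limma fit without the filter its log2 fold change was -1.04 ± 0.44 (SE), with an unadjusted p of 0.0334 and an adjusted p of 1.00. Both group means were under the filter.

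**Figure D4:**
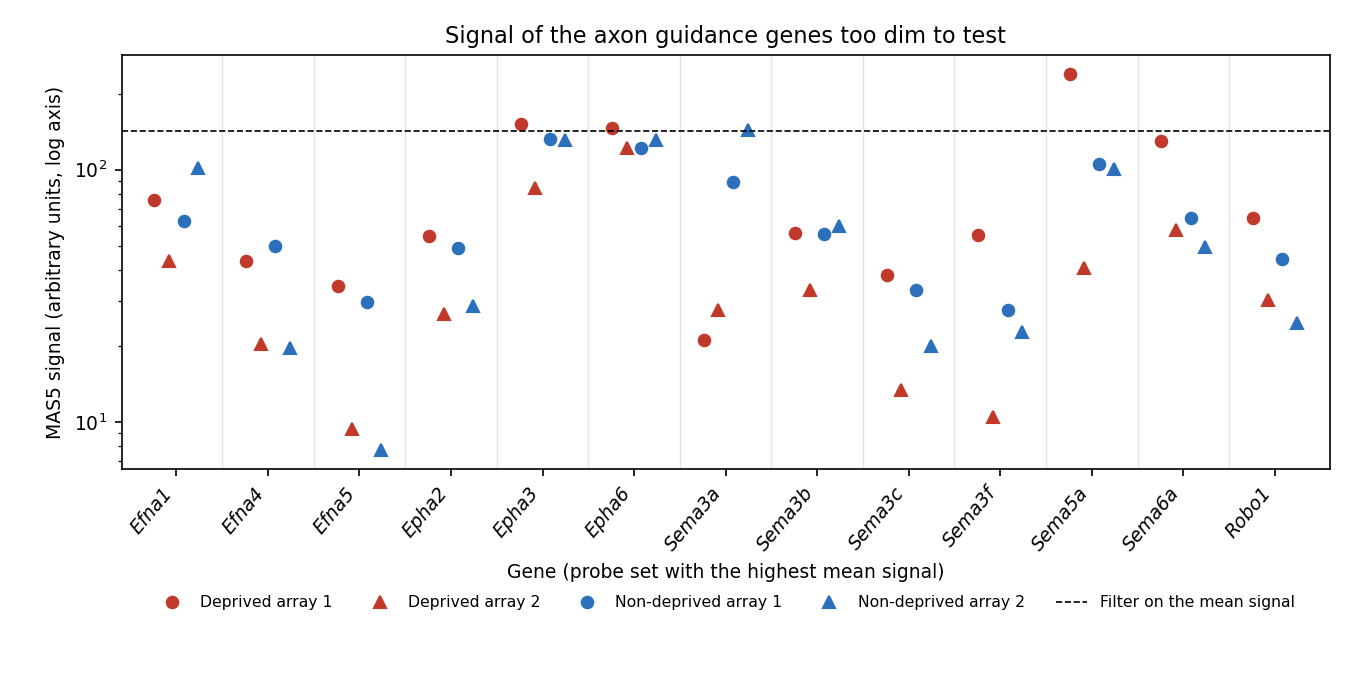
MAS5 signal (arbitrary units, log axis) of the 13 guidance genes below the filter on each of the 4 arrays, with the filter at a mean signal of 142.9 as a dashed line; red is deprived, blue is non-deprived, circles are replicate 1 and triangles replicate 2. Sema3a is the gene whose red points both lie below its blue points, and the other 12 overlap.

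Genes that work beside these ligands and receptors also gave no adjusted call in limma. Of 26 listed co-receptors and other cues, 14 were tested, with 0 past an adjusted p of 0.05, 0 at an unadjusted p under 0.05 and a median log2 fold change of -0.032. Ryk, a Wnt receptor in axon guidance, had 657.5 and 488.9 on the deprived and 299.9 and 416.1 on the non-deprived arrays (0.60 ± 0.28, SE; unadjusted p = 0.0558). The proteoglycan gene Sdc3 had 115.4 and 129.5 against 168.6 and 311.8 (-0.68 ± 0.50, SE), and its deprived arrays were both under the filter. Nrcam, an adhesion molecule gene, had 994 and 1205 against 1346 and 1218 (-0.21 ± 0.19, SE). Of 55 listed intracellular mediators, 27 were tested, 14 lower and 13 higher, with a median of -0.018, 0 past an adjusted p of 0.05 in limma, and 3 at an unadjusted p under 0.05 (1 lower and 2 higher). Over all tested genes 4.92% were at that limit and 49.2% had values below 0. Cdk5r1, the activator of the kinase Cdk5, had 412 and 507 on the deprived and 971 and 822 on the non-deprived arrays, which did not overlap (-0.88 ± 0.23, SE; limma adjusted p = 0.37). Tiam1, an exchange factor that switches on the GTPase Rac1, had 846 and 1068 against 466 and 594 (0.78 ± 0.23, SE; adjusted p = 0.484 in limma). Rhoa, a GTPase that drives growth cone collapse, had 1663 and 2610 against 1429 and 1490 (0.50 ± 0.21, SE; adjusted p = 0.89 in limma).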

How the data were processed

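The authors deposited 1 intensity per probe set on a linear scale for 4 single-colour arrays, made with MAS5 per the submitters' processing notes. Its version, scaling target and detection calls are not given in the sources used here. All 4 arrays were used (2 deprived, 2 non-deprived), and the 2% trimmed mean was about 500.3 on each, with 12488 probe sets, 66 of them controls.

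Arrays were scaled to a common 2% trimmed mean, 60.6 (20th percentile of the mean signals) was added and log2 taken. The fold changes are therefore understated, most in dim genes. Controls and probe sets under the 40th percentile (142.9) were left out, which kept 7458. limma 3.58.1 in R 4.3.3 (lmFit, eBayes with a mean-variance trend, two-sided) compared the groups, with Benjamini-Hochberg adjustment over these 7458 and 95% intervals from its total degrees of freedom (11.6). The code was tested on simulated data. Platform symbols were updated by Entrez identifier to RefSeq (10839 of 10855 matched). A gene is its probe set with the highest mean signal. Counts over all genes use 1 probe set for each of 5649 tested genes.

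The series' design text mentions cross-animal comparisons as additional, which was read as same-numbered arrays sharing animals. Departures from the group mean had r = 0.27 between arrays of 1 number, which cannot tell shared animals from shared processing. The block was run beside the unblocked fit.

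Given with array values were each family's gene with the highest signal, its 3 smallest p-values, genes at an unadjusted p under 0.05 or 1.5-fold apart in all pairs, and, of each further list, the 3 smallest p-values. Other members were named to account for all. The members and lists were chosen with earlier results of these data known. Alternatives covered the pseudocount, filter, scaling, variance trend, block, probe set choice, fold limit and each array left out. The number of arrays limits the precision. Probe positions were not analysed here.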

Additional observations from a re-analysis of the deposited data

How the results depend on the processing

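The count of guidance genes past an adjusted p of 0.05 was 0 in limma under every alternative run, the replicate block included. The block gave 7 guidance genes at an unadjusted p under 0.05 and changed no call. The count of 5 at an unadjusted p under 0.05 became 2 with arrays scaled to a common median and 2 without a variance trend, and ran from 2 to 10 with 1 array left out. With a common median Efna3, Plxnd1 and Plxna2 gave p of 0.115, 0.102 and 0.0864. Without non-deprived array 2, 1 of the 5 genes stayed under 0.05, without non-deprived array 1 it was 2, and without deprived array 1 or 2 it was 4; all 5 kept their sign throughout. The count of 1 gene at 1.5-fold in all pairs became 2 without a filter, 0 when the 40th percentile was added before log2, 5 or 0 at a fold of 1.2 or 2, and ran from 1 to 9 with 1 array left out, where fewer pairs had to agree; it was 9 without deprived array 2. The median of -0.016 became 0.107 with the second brightest tested probe set, the Eph receptor median 0.27 from -0.24, and Ephb6 and Epha4 turned to 0.19 and 0.58. A filter at the 60th percentile moved the Eph receptor and ephrin medians to -0.004 and 0.019, with 4 and 3 genes left. Ntn1 turned to 0.011 with a common median and 0.023 after quantile normalization, and ran from -0.28 to 0.27 with 1 array left out; Sema4f ran from -0.034 to 0.22. Apart from fewer genes or pairs, the cause was not tested. Over 16 named genes, 6 values reversed in sign and 169 did not. None of the 16 passed an adjusted p of 0.05 in any setting run, so this says nothing of the stability of a call. Where 1 array was left out, the remaining one of its group was taken to have the other group's spread.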

Other observations

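Growth cone and axon genes showed no adjusted call in limma: of 13 listed, 12 were tested, 8 lower and 4 higher. Their median log2 fold change was -0.09, against 0.0057 over all tested genes, with 0 past an adjusted p of 0.05 and 2 at an unadjusted p under 0.05. Over all tested genes 49.2% had values below 0 and 4.92% were at that unadjusted limit. Nefl, the light neurofilament gene of axons, had signals of 615.5 and 606.9 on the deprived arrays and 931 and 1113 on the non-deprived arrays, which did not overlap (-0.68 ± 0.21, SE; limma adjusted p = 0.515). Marcks, an actin-binding substrate of protein kinase C, had 1659 and 1713 against 1276 and 1289, also without overlap (0.38 ± 0.17, SE; limma adjusted p = 0.91). Stmn2, a microtubule-binding protein of growth cones, had 3754 and 4540 against 4319 and 5398, which overlapped (-0.22 ± 0.19, SE). Nefl and Stmn2, and Nefm of the same list, are also among the neuron markers summed above, so the 2 results share genes.

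Inhibitors of axon growth and their receptors had 5 tested genes of 14 listed, 2 lower and 3 higher, with a median of 0.084 and 0 at an adjusted or unadjusted p under 0.05 in limma. Bcan, a proteoglycan of the extracellular matrix, had 2399 and 2379 on the deprived and 2157 and 1886 on the non-deprived arrays, which did not overlap (0.24 ± 0.17, SE). Mog, a myelin surface protein, had 361.4 and 343 against 302.6 and 210.2 (0.40 ± 0.34, SE). Mag, another myelin protein, had 782.4 and 844.3 against 700 and 949.9, which overlapped (-0.005 ± 0.22, SE). Both are also among the oligodendrocyte markers summed above. Ncan, a further matrix proteoglycan, had 319.2 and 471.8 against 383.1 and 345 (0.08 ± 0.30, SE), and Rtn4, the gene of the growth inhibitor Nogo, gave -0.04 ± 0.17 (SE).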
